A study of Mus musculus with 3 samples.

Results

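The SR proteins are splicing factors with at least one RNA recognition domain and a tail rich in arginine and serine. They bind exons of precursor RNA and help to choose splice sites, and several of them also travel with messenger RNA to the cytosol. Many SR genes are known to limit their own output with a poison exon, a cassette exon or spliced untranslated region whose use puts a stop codon well ahead of an exon junction, so that nonsense-mediated decay removes the message during translation. Other transcripts of these genes keep an intron and tend to stay in the nucleus. The 10 genes described here, Srsf1 to Srsf7 and Srsf9 to Srsf11, were taken by gene symbol from 55536 annotated genes, of which 22028 are protein coding. They carry 85 of the 141862 annotated transcripts. Of these 85, 29 are labelled protein coding (in all 10 genes), 26 retained intron (in 8 genes), 15 nonsense-mediated decay (in 9 genes) and 15 processed transcript (in 5 genes). Srsf10 has no decay-class transcript, and neither Srsf9 nor Srsf10 has one with a retained intron.

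The RNA came from the cytosol of mouse bone marrow-derived macrophages of strain C57BL/6J, primary cells given 100 ng/ml Lipid A, the Toll-like receptor 4 agonist of bacterial lipopolysaccharide, for 40 minutes. Ribosomal RNA was depleted, and 3 libraries from 1 µg of RNA each formed 1 group, numbered biological replicates 1, 2 and 3. Age and sex are not given, and the 3 share 1 donor record, so each p-value reflects how far 3 libraries scatter, and part of that scatter may be technical. Neither unstimulated cells nor another cell fraction was analysed here, and no value below is a response to Lipid A or a ratio between compartments.

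The libraries held 37861150, 37136495 and 58889061 expected counts in genes, of which the 10 SR genes took 26162, 24626 and 46019. All 8 macrophage markers were above 1 TPM, with a summed level of 5615 to 9575 TPM. TPM is a length-scaled abundance with the same sum in every library. Markers of B cells, dendritic cells, stroma and red cells each summed to at most 1.13 TPM. The neutrophil list summed to 34.3 to 44.8 TPM with Ly6g at 0, the T cell list to 18.7 to 28.7 TPM with Cd3e at 0 and Cd4 at nearly all of it, and the megakaryocyte list to 202 to 233 TPM, nearly all of it Pf4. The nuclear RNA Malat1 stood at 291, 264 and 898 TPM in replicates 1, 2 and 3, and Neat1, which builds paraspeckles, at 27.8, 16.9 and 77.8 TPM, so replicate 3 held the most of both. In a bulk sample, fewer cells of a type and less RNA per cell cannot be told apart.

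The decay label depends on where the stop codon lies relative to later exon junctions, so the stretches that end in that stop are shown first. Given here, 5′ to 3′ in the direction of transcription, is the part of the exon with the stop codon, from the start of the exon to that stop, read from GENCODE M21 transcript sequences on mm10. Capitals mark the stop codon.
Srsf3-201: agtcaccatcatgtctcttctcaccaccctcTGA
Srsf7-203: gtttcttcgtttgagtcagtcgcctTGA
Srsf6-201: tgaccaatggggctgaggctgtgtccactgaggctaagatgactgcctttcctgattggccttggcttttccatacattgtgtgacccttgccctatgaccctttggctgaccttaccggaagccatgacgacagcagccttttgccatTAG
Srsf4-203: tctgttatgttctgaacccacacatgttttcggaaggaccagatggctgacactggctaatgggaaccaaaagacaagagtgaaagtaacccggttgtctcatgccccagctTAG
Srsf11-206: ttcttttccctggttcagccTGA
Srsf11-212: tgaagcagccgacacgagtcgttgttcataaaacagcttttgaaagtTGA
Srsf1-204: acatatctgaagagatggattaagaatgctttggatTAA
Srsf2-204: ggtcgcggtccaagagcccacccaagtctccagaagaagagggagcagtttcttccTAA

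The stretch of Srsf3-201 is chr17:29039454-29039487 on the plus strand, the start of a 456-base exon that lies in no coding transcript. Its stop follows 31 exon bases and sits 548 bases before the last exon junction. The stretch of Srsf7-203 is chr17:80205054-80205081 on the minus strand, in a 460-base exon also absent from coding transcripts, with the stop after 25 bases and 699 bases before the last junction. Srsf3 and Srsf7, close relatives, thus have the same layout: an added exon 4 of nearly equal length that meets a TGA within its opening bases. The stretch of Srsf6-201, chr2:162932815-162932966 on the plus strand, runs 149 bases before a TAG in an exon of 268 bases. Of these 268 bases, 103 lie in no coding transcript, because Srsf6-202, a model labelled coding, includes the rest and uses the same stop.

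Srsf4-203 and Srsf4-204 overlap in 3 exons that no coding transcript holds, with the same bounds only in the middle one. The stretch shown is chr4:131884276-131884390 on the plus strand. The exons with the stops of Srsf11-206 (109 bases, chr3:158024123-158024231) and Srsf11-212 (117 bases, chr3:158023243-158023359), on the minus strand, are also outside coding transcripts. Srsf2 is of another kind. Its stretch, chr11:116852028-116852086 on the minus strand, ends in the stop codon that the coding models Srsf2-201 and Srsf2-206 use, so the decay label rests on junctions downstream of the normal stop and not on a premature one. That of Srsf1-204, chr11:88049977-88050015 on the plus strand, lies inside bases that coding transcripts also cover, but is reached through a junction they lack.

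The decay label and the structure did not coincide everywhere. All 15 decay-class transcripts have their stop between 67 and 706 bases before the last junction, with a median of 422. Of the 27 coding transcripts with an annotated stop, 1 has it more than 50 bases before the last junction: Srsf2-206, at 217 bases, the same distance as in the decay-class Srsf2-202. Of the decay-class transcripts, 11 in 7 genes hold bases that no coding transcript has, 9 have an annotated start that is incomplete, and 13 have no base that is absent from every other transcript of the gene. Reads that lie within an exon of these 13 fit other models of the gene too, whereas some of the 13 have junctions of their own.

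**Figure D1:**
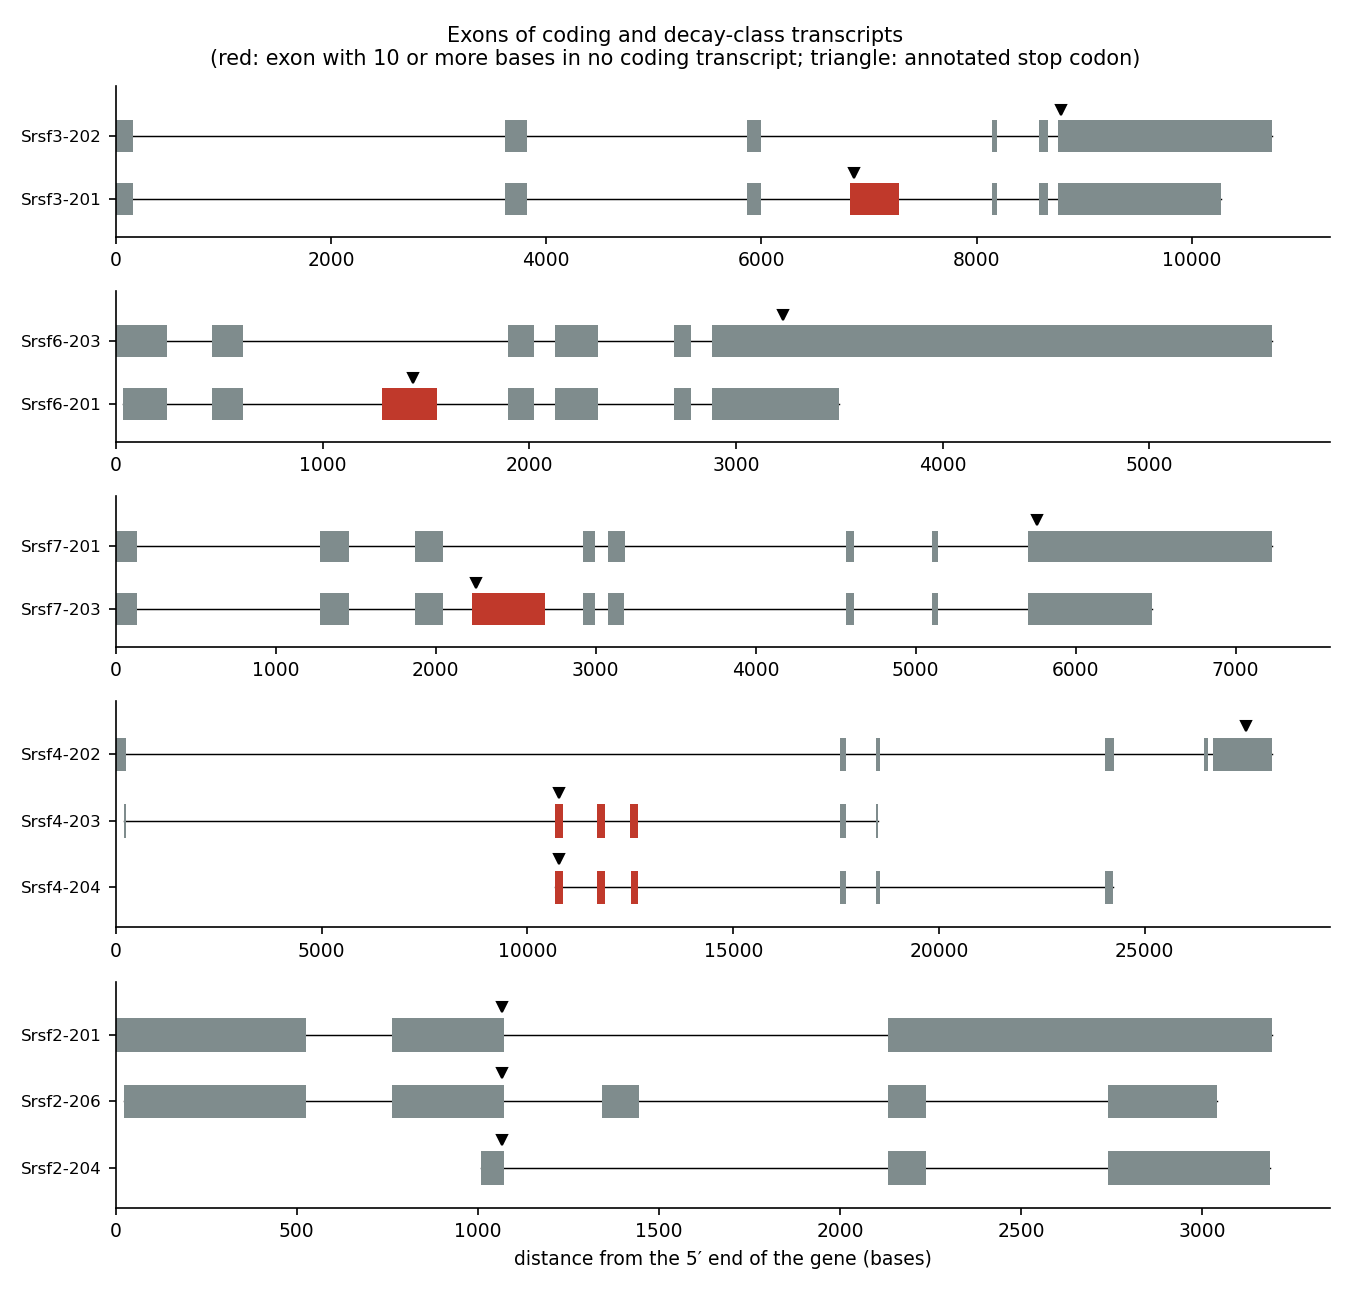
Exons (boxes) and introns (lines) of selected coding and decay-class transcripts of Srsf3, Srsf6, Srsf7, Srsf4 and Srsf2, by distance in bases from the 5′ end of the gene. Red boxes mark exons of the decay class with at least 10 bases in no coding transcript, and triangles the annotated stop codon: in the first 4 genes it moves into a red exon, while in Srsf2 it stays at the normal place.

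Levels of the 10 genes spanned less than one order of magnitude. Srsf5, which helps choose exons in many messages, stood at 83.8, 78.0 and 76.6 TPM in replicates 1, 2 and 3 (79.5 ± 3.80, SD, n = 3) and held 27.2% to 32.2% of the summed level of the 10 genes. Srsf2, a marker protein of nuclear speckles, followed with 41.1, 55.0 and 39.0 TPM (45.0 ± 8.70), highest in replicate 2. Srsf1, the founding SR protein, had 25.0, 29.4 and 20.4 TPM (24.9 ± 4.50). Srsf3, which also takes part in messenger RNA export, had 25.9, 21.6 and 20.4 TPM (22.6 ± 2.86). Srsf9 had 22.4, 18.5 and 19.1 TPM (20.0 ± 2.12).

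The other members lay lower and close together. Srsf7, which binds RNA with the help of a zinc knuckle, had 16.0, 20.3 and 13.6 TPM (16.6 ± 3.38). Srsf11 had 12.7, 20.0 and 14.6 TPM (15.8 ± 3.80), and Srsf6 16.8, 16.0 and 14.1 TPM (15.6 ± 1.41). Srsf10, known as a splicing repressor when dephosphorylated, had 13.5, 17.3 and 12.1 TPM (14.3 ± 2.66). Srsf4 was the lowest, with 9.75, 10.3 and 7.82 TPM (9.30 ± 1.32). Every member was above the median of 6.17 TPM over 11458 protein-coding genes with a mean of at least 0.1 TPM, from percentile 60.9 for Srsf4 to percentile 94.7 for Srsf5.

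Neighbours in this order were compared within each library. A pair was taken to differ beyond its spread where all 3 libraries gave the same order and the mean log2 ratio exceeded its SD. Srsf5 over Srsf2 (0.83 ± 0.29, SD, n = 3), Srsf2 over Srsf1 (0.85 ± 0.12), Srsf3 over Srsf9 (0.17 ± 0.07) and Srsf10 over Srsf4 (0.61 ± 0.14) met this. The other 5 neighbouring pairs did not: Srsf1 and Srsf3, Srsf9 and Srsf7, Srsf7 and Srsf11, Srsf11 and Srsf6, and Srsf6 and Srsf10. Pairs that are not neighbours were not compared.

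How a library was scaled set the direction of its difference from the others. On the TPM scale 8 of 10 members were lowest in replicate 3, as were 85.6% of all genes tested. Nuclear protein-coding genes took 32.8%, 36.2% and 23.5% of TPM in replicates 1, 2 and 3. When TPM was rescaled to those genes, the summed level of the 10 members turned from 267, 286.5 and 238 TPM to 251, 244 and 311. In log2 CPM (counts scaled to a fixed library size) after TMM scaling, 9 of 10 members (all but Srsf10) were highest in replicate 3, against 32.3% of genes tested.

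No member was called for varying between libraries more than genes of its abundance, a count that the low background cannot tell from that of other genes. In edgeR's goodness-of-fit test of an intercept-only model, 1.71% of 12250 genes were called (209 genes at a Benjamini-Hochberg adjusted p under 0.05, and 753 at an unadjusted p under 0.05) and 0 of 10 members, with 0 also at an unadjusted p under 0.05. Srsf9 came nearest, with an adjusted p of 0.831 and an SD of 0.32 on the log2 scale. Srsf1 was the steadiest member, at 6.87, 6.89 and 6.96 log2 CPM (SD 0.045). The median SD of the members was 0.21, and that of all genes tested 0.16.

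**Figure D2:**
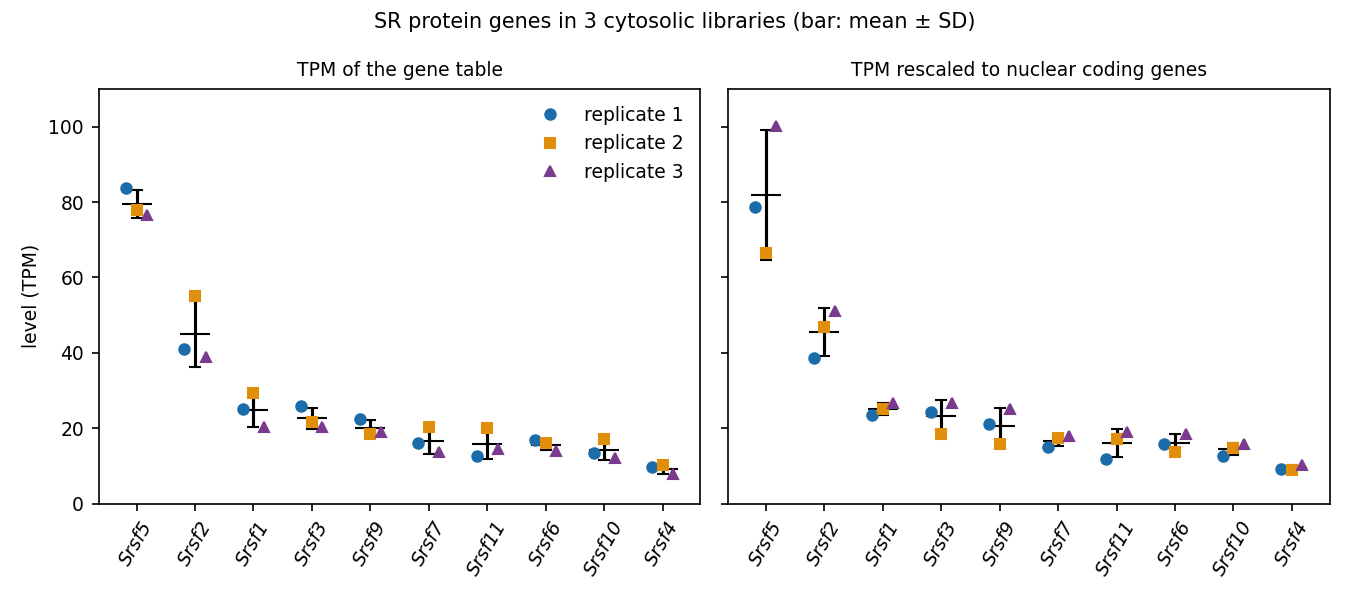
Level of each member by library (points) with mean ± SD (bars, n = 3), in TPM of the gene table on the left and in TPM rescaled to nuclear protein-coding genes on the right. Srsf5 and Srsf2 stand above the rest on both scales, while replicate 3 is mostly the lowest point on the left and mostly the highest on the right.

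Class shares were the percentage of a gene's TPM in transcripts of each class, taken within a library, so scaling between libraries does not enter. The transcripts were deposited in 2 tables. One came from a transcriptome alignment and is called alignment-based here, the other was made from the reads directly and is called direct. The median protein-coding share of the members was 86.4% in the alignment-based table, with a range of 60.5% to 97.9%, and 81.3% in the direct table. Over all protein-coding genes with at least 1 TPM it was 97.9% (9480 genes) and 96.1% (8281 genes). That set did not require transcripts of another class, which every member has, so part of the gap may lie in the annotation. The median decay-class share of the 9 members with such transcripts was 5.74% against 2.02% over 2947 genes, and directly 8.20% against 2.96% over 2587 genes. For the members it was 3.42% by expected counts and 0.127% without transcripts whose start is incomplete, both from the alignment-based table. Neither of these has a like median over all genes beside it, since those medians are by TPM with every model kept. The median retained-intron share of 8 members was 3.55% against 1.45% over 5946 genes, and 4.62% against 2.33% over 5306 genes in the direct table. No test was made of these medians.

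**Figure D3:**
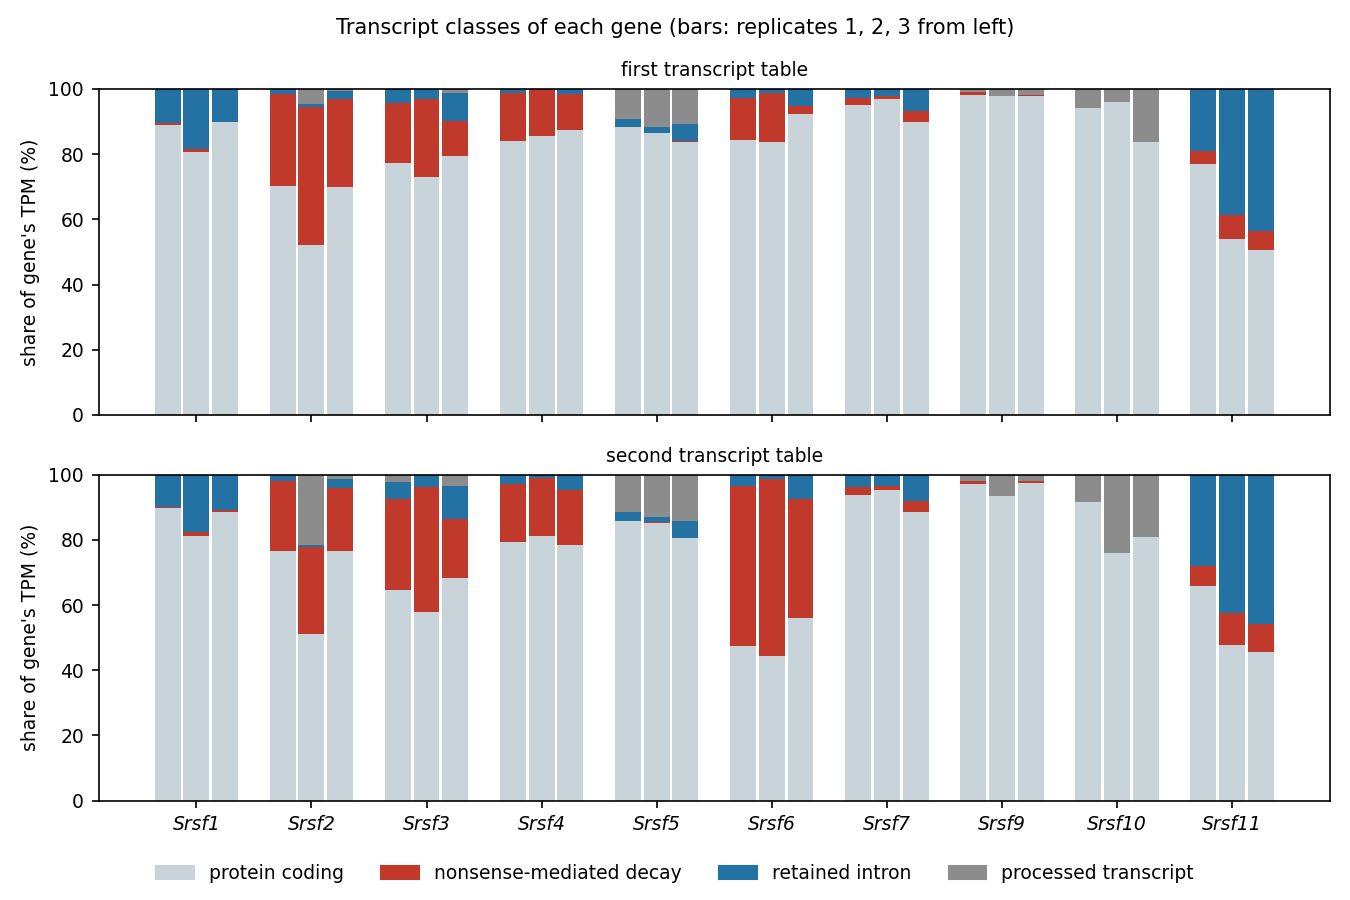
Share of each gene's TPM (%) in 4 transcript classes, with 1 stacked bar for each of replicates 1, 2 and 3, from the alignment-based table (top) and the direct table (bottom). Decay-class transcripts are prominent in Srsf2, Srsf3, Srsf4 and Srsf6, and retained-intron transcripts in Srsf11 and Srsf1.

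By each of these tables, 4 of the 9 members with decay-class transcripts carried at least 10% of their TPM in them: Srsf2, Srsf3, Srsf4 and Srsf6. Of all genes with such transcripts and at least 1 TPM, 24.8% of 2947 and 28.0% of 2587 did so. The list depends on the unit and the models: by expected counts of the alignment-based table Srsf4 had a mean of 5.20% and Srsf6 of 4.80%, and without models whose start is incomplete Srsf2 and Srsf4 had 0 in every library. In the alignment-based table the Srsf3 share was 18.3%, 24.1% and 10.5% in replicates 1, 2 and 3 (17.6 ± 6.81, SD, n = 3), and all of it came from Srsf3-201, the transcript with the 456-base exon. That transcript stood at 4.74, 5.21 and 2.15 TPM, beside 20.0, 15.8 and 16.2 TPM for the coding Srsf3-202. It was backed by 614, 636 and 565 expected counts, so replicate 3, with the most reads, had the fewest on this transcript. The authors' interval for Srsf3-201 was 1.78 to 2.41 TPM in replicate 3 and did not overlap those of the other libraries (3.93 to 5.26 and 4.36 to 5.70).

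The share of Srsf3 hardly depended on the unit, and its decay-class and coding transcripts are of like length (2594 and 2618 bases). By expected counts its decay-class share was 17.9%, 23.7% and 10.3%. In the direct table the TPM share was 27.9%, 38.3% and 18.1% (28.1 ± 10.1), higher in all 3 libraries by 10.5 points on average, a difference that did not pass the test (limma, adjusted p = 0.131).

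Srsf6, a regulator of exon choice in many tissues, had the widest gap between the tables. Its share was 13.0%, 15.0% and 2.49% in the alignment-based table and 49.1%, 54.4% and 36.4% in the direct table, so that no value of one overlapped the other. By counts it was 6.15%, 7.11% and 1.13% by alignment and 29.8%, 34.2% and 20.5% in the direct table. The decay-class Srsf6-201 had 2.18, 2.40 and 0.35 TPM by alignment and 4.70, 5.38 and 1.82 TPM directly. The coding Srsf6-203 went the other way, from 14.2, 13.5 and 12.9 TPM to 4.54, 4.37 and 2.78 TPM. Levels in TPM were lower in the direct table for Srsf6 as a whole, with a mean of 8.15 TPM against 15.65 TPM in the gene table. The summed level of the members was lower too (117 against 264 TPM). The fall of Srsf6-203 in TPM is thus not by itself a shift between transcripts, which the shares above measure. The models differ at both ends of the message as well as in the exon shown: Srsf6-203 is 3527 bases long and Srsf6-201 is 1666, with an earlier 3′ end. Srsf6-201 was quantified loosely by alignment, with authors' intervals of 1.37 to 3.13, 1.15 to 3.72 and 0.14 to 0.64 TPM.

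Across all genes with decay-class transcripts, the direct table gave a higher decay-class share in 0.928% of 2585 genes (24) and a lower one in 0.426% (11), by limma on the difference within libraries at an adjusted p under 0.05. Of the 9 members 1 was called. That was Srsf6, higher in the direct table by 36.5 points (SE 1.45, SD 2.81, n = 3, higher in 3 of 3 libraries, limma adjusted p = 0.0428). The call was lost by shares of counts (23.4 points, limma adjusted p = 0.0610), on a logit scale (limma adjusted p = 0.0991) and with no minimum level (limma adjusted p = 0.0700). Without any 1 library the difference was 35.0 to 37.8 points, with limma adjusted p from 0.110 to 0.269, in fits of 2 libraries that called 0 of 2585 genes. The uncalled differences were 2.46 points for Srsf11 (limma adjusted p = 0.0675), 4.06 for Srsf4 (0.148) and -10.1 for Srsf2 (0.181). Srsf1, Srsf5, Srsf7 and Srsf9 lay within 0.12 points of 0.

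Srsf2 had the largest decay-class share by alignment, 28.2%, 42.4% and 27.2% (32.6 ± 8.50), and 21.4%, 26.7% and 19.2% (22.5 ± 3.86) in the direct table. Replicate 2 was the highest in both. By alignment all of this was Srsf2-204, at 11.6, 23.3 and 10.6 TPM, with authors' intervals of 9.17 to 13.5, 19.6 to 26.0 and 8.98 to 11.9 TPM. The coding Srsf2-201 had 27.7, 26.9 and 25.6 TPM. No base and no single junction of Srsf2-204 is absent from the coding transcripts of the gene. Its share thus depends on how reads that also fit coding models were assigned. Srsf2-204 is a 620-base model with an incomplete start, against 1899 bases for Srsf2-201, and TPM gives a short model more weight for each read: by expected counts the share was 8.66%, 15.8% and 8.29%. Counting Srsf2-206 with the decay class, as its junctions would place it, gave a TPM share of 36.0%, less than 1 SD away.

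Of the 4 members with the larger shares, Srsf4 had the most even one, 14.8%, 14.3% and 11.3% by alignment (13.4 ± 1.91) and 17.8%, 17.7% and 17.1% in the direct table (17.5 ± 0.365). It came from Srsf4-204 (1.23, 0.81 and 0.77 TPM) and Srsf4-203 (0.21, 0.67 and 0.11 TPM), short models (980 and 851 bases) with an incomplete start. By expected counts it was 5.88%, 5.35% and 4.35%.

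The remaining members with a decay class held less than 10% of their TPM in it in every library of both tables. Srsf11 had 4.02%, 7.44% and 5.76% by alignment and 6.14%, 9.83% and 8.64% in the direct table. Its means were above the medians over all genes with such transcripts, 2.02% and 2.96%. Its decay-class transcript with the highest mean, Srsf11-206, had 0.24, 1.11 and 0.19 TPM and was the highest of the class in replicate 2 alone. Srsf7, whose decay-class exon resembles that of Srsf3 in layout, had 2.43%, 0.986% and 3.38%, and Srsf7-203 had 0.39, 0.20 and 0.46 TPM. Thus the 2 genes with like exons differed in share: 17.6 ± 6.81% for Srsf3 and 2.27 ± 1.20% for Srsf7, with no overlap between their libraries. Srsf1 had at most 1.02%, Srsf9 at most 0.801% and Srsf5 at most 0.205% in any library of the alignment-based table. Of the 15 decay-class models, 3 were at 0 in every library by alignment and 2 in the direct table.

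**Figure D4:**
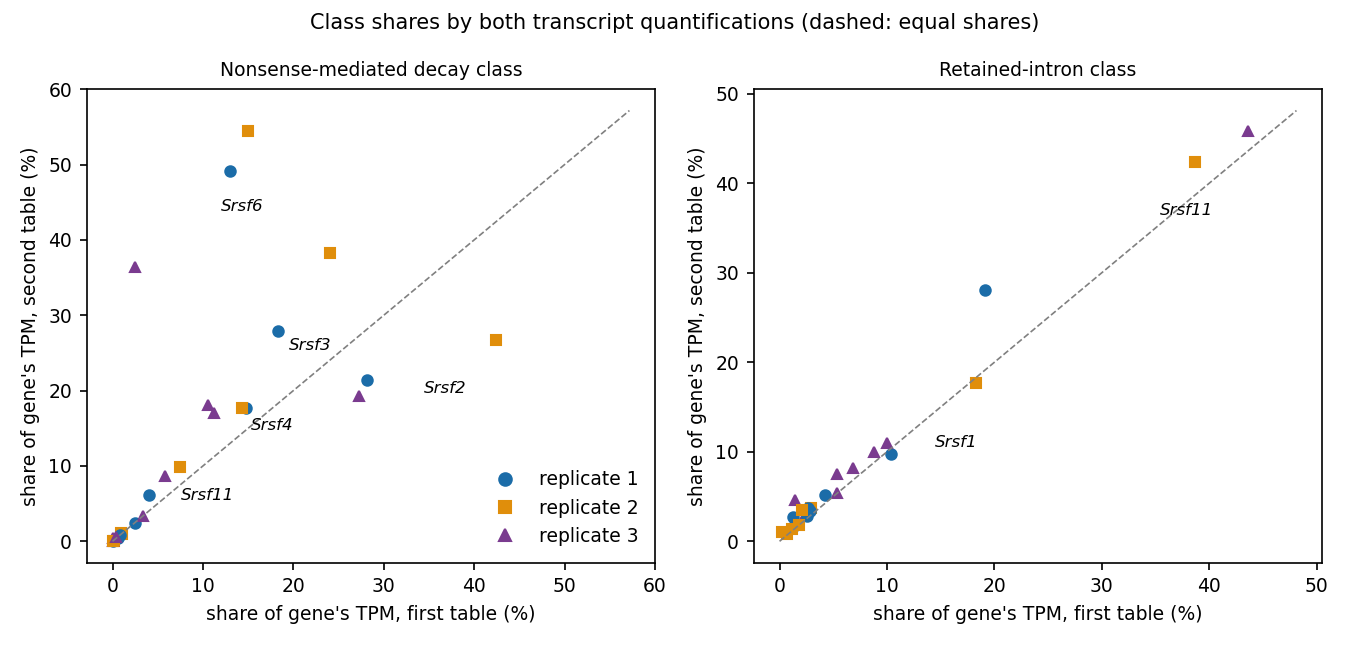
Share of a gene's TPM (%) in the decay class (left) and the retained-intron class (right), alignment-based table on the horizontal axis and direct table on the vertical axis, with 1 point per member and library and a dashed line at equality. Srsf6 lies far above the line and Srsf2 below it on the left, while the retained-intron shares mostly lie near the line.

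Few genes were called for a retained-intron share that differed between the tables. Over all genes with such transcripts, 0.0754% of 5302 were higher and 0.264% lower in the direct table (limma, adjusted p under 0.05: 4 and 14 genes, with 925 of the 5302 at an unadjusted p under 0.05), and 0 of 8 members were called. At an unadjusted p under 0.05 stood Srsf7 (1.31 points higher, limma adjusted p = 0.0980) and Srsf3 (0.97 points higher, limma adjusted p = 0.132).

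Srsf11 was the member richest in this class, at percentile 96.1 of all genes with such transcripts. Its share was 19.1%, 38.7% and 43.6% by alignment (33.8 ± 12.9) and 28.1%, 42.3% and 45.8% in the direct table (38.7 ± 9.39). Of its 19 transcripts 11 are of this class. The share of replicate 2 rested on the 521-base Srsf11-211, which had 6.58 TPM there, 1.52 TPM in replicate 3 and 0 in replicate 1. By expected counts the order changed to 14.5%, 13.3% and 32.5%, with replicate 3 alone high.

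Srsf1 was next, with 10.4% and 18.3% in replicates 1 and 2 and 10% in replicate 3 by alignment (12.9 ± 4.67) and 9.79%, 17.7% and 10.9% in the direct table. Replicate 2 was the highest in both. Nearly all of it was the 759-base Srsf1-203, at 2.59, 5.37 and 2.04 TPM. The bases of this model all lie within coding transcripts of the gene, but it has 1 junction that no coding transcript has. By expected counts the share was 1.70%, 3.19% and 1.72%.

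The 6 other members had mean shares from 0.943% (Srsf4) to 5.33% (Srsf3), and their libraries fell in one order: replicate 2 lowest, replicate 1 between, replicate 3 highest. For Srsf3 these were 2.96%, 4.25% and 8.77%, for Srsf7 2.07%, 2.62% and 6.83%, for Srsf5 1.85%, 2.59% and 5.31%, and for Srsf6 1.18%, 2.79% and 5.33%. Srsf2 had 0.709%, 1.22% and 2.38%, and Srsf4 0.193%, 1.23% and 1.41%. That order, chosen after the members' values were seen, held for 6 of 8 members and 38.1% of 5946 genes by alignment, and for 6 of 8 members and 45.3% of 5306 genes in the direct table. It is also the order of Malat1 and Neat1 given above, and of the median retained-intron share over all genes, 0.428%, 1.03% and 1.97% in replicates 2, 1 and 3. The mean over the same genes was also highest in replicate 3 but lowest in replicate 1, at 5.71%, 5.33% and 6.61% in replicates 2, 1 and 3. The part of nuclear RNA in these shares was not tested.

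The decay class ran the other way in the members where it was prominent, apart from Srsf4. Replicate 3 was lowest, replicate 1 between and replicate 2 highest in 4 of 9 members by alignment (Srsf1, Srsf2, Srsf3 and Srsf6) and in 3 of 9 in the direct table (Srsf2, Srsf3 and Srsf6). The background for this order, again chosen after the values were seen, was 11.2% of 2947 genes and 13.4% of 2587 genes. Srsf7 ran in the opposite direction, with its highest decay-class share in replicate 3. So did the median decay-class share over all genes with such transcripts by alignment, at 0.865%, 1.62% and 1.78% in replicates 2, 1 and 3. The mean over the same genes was instead highest in replicate 2, at 8.91%, 8.45% and 8.51% in replicates 2, 1 and 3. In the direct table the median was 2.13%, 2.49% and 2.88% in replicates 2, 1 and 3. The mean there was 10.4%, 9.52% and 9.41%, in the order of Srsf2, Srsf3 and Srsf6.

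**Figure D5:**
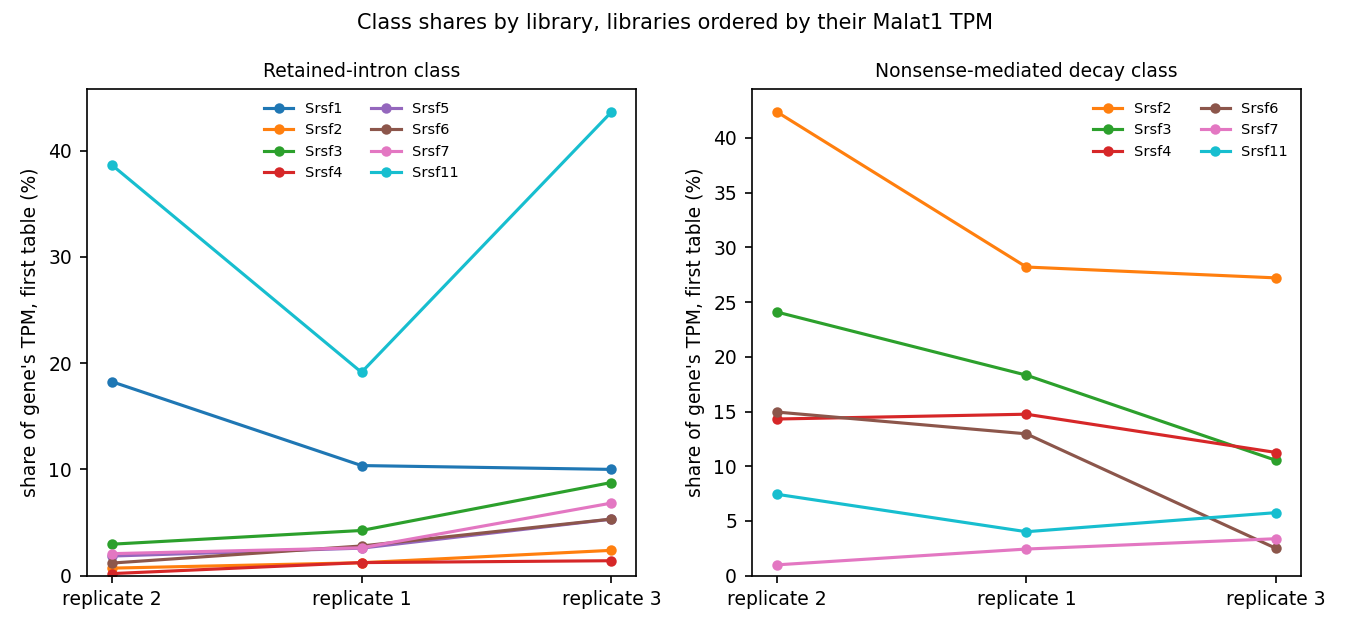
Retained-intron share (left) and decay-class share (right) of each member's TPM in the alignment-based table (%), with libraries placed in the order of their Malat1 TPM and members with a mean share under 0.9% left out. On the left 6 members climb from replicate 2 to replicate 3 and Srsf1 and Srsf11 do not, and on the right Srsf2, Srsf3 and Srsf6 are highest in replicate 2 and lowest in replicate 3.

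Set against each other within a library, both classes divided the members. By alignment the shares differed in 15.2% of 2391 genes by limma at an adjusted p under 0.05, with the retained-intron share the higher one in 123 and the lower one in 240. Of 8 members 1 was called: Srsf4, with a retained-intron share 12.5 points below its decay-class share (SE 1.21, n = 3, limma adjusted p = 0.0290). Srsf2 was 31.2 points below (limma adjusted p = 0.0509), Srsf1 12.3 points above (0.0663) and Srsf11 28.1 points above (0.0857), each in 3 of 3 libraries. The Srsf4 call was lost by expected counts (-3.72 points, limma adjusted p = 0.0918). Without replicate 1, 2 or 3 the Srsf4 difference was -12.0, -11.7 and -13.8 points, uncalled, in fits of 2 libraries of which those without replicate 1 and without replicate 3 called 0 of 2391 genes.

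By the direct table's values 19.0% of 2126 genes were called (140 higher and 264 lower), and 5 of 8 members. Srsf11 (30.5 points, limma adjusted p = 0.0288) and Srsf1 (12.2 points, 0.0481) were on the retained-intron side. Srsf6 (-42.6 points, limma adjusted p = 0.0355), Srsf2 (-20.7 points, 0.0269) and Srsf4 (-14.7 points, 0.0162) were on the decay side. The Srsf4 direction depended on the unit. By counts of the direct table its decay-class share was 7.07%, 6.45% and 6.67% in replicates 1, 2 and 3. Its retained-intron share by counts was 4.33%, 1.66% and 7.16%, so replicate 3 went the other way. The difference by counts was not tested in this table. Srsf3 stood at -21.8 points with a wide spread (SD 13.2, limma adjusted p = 0.127), and Srsf5 and Srsf7 at 3.34 and 2.87 points, uncalled. The direction of the mean was the same in both tables for all 8, and the tables share their reads. Libraries of Srsf6 were split by alignment, at -10.2, -13.8 and 2.84 points in replicates 1, 2 and 3 (mean -7.03, limma adjusted p = 0.359).

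Processed transcripts, which have no annotated reading frame, made up 9.11%, 11.6% and 10.7% of Srsf5 and 5.93%, 4.11% and 16.1% of Srsf10 by alignment. By expected counts these shares were lower, at 3.37%, 3.77% and 3.72% for Srsf5 and 1.52%, 3.32% and 4.13% for Srsf10. In the direct table Srsf10 had 8.45%, 24.0% and 19.1% by TPM and 2.57%, 6.88% and 6.83% by counts. Of its TPM in replicate 2, 16.7% was the 394-base Srsf10-209, which was at 0 in replicates 1 and 3. For Srsf2 too, 1 library set the direct table's value: it had 0.463%, 21.4% and 1.20%, all from a model of 433 bases. In replicate 2 that model had 5.83 TPM in the direct table and 2.61 TPM by alignment.

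Other genes of the pathway were present throughout. Of 16 other SR and SR-related genes 15 were above 1 TPM and Srsf12 was at 0, and the highest were Srrm2 (52.9 ± 8.69 TPM) and Son (45.9 ± 6.87 TPM), scaffold proteins of nuclear speckles. Their median decay-class share was 3.42% over 11 genes and their median retained-intron share 3.65% over 15. Of 15 kinases, phosphatases and transport factors of SR proteins 14 were above 1 TPM, led by the phosphatase subunits Ppp1ca (88.5 ± 19.9 TPM) and Ppp1cc (75.2 ± 20.8 TPM). Their medians were 16.2% over 10 genes and 4.69% over 13. All 17 genes of the decay machinery were above 1 TPM, led by the release factor Etf1 (37.9 ± 3.80 TPM) and the exon junction complex subunit Eif4a3 (32.1 ± 5.30 TPM). Of these 3 lists 0 genes were called in edgeR's test of spread (0 of 15, 0 of 14 and 0 of 17), whereas Malat1, Neat1, Rn7sk and Kcnq1ot1 of 5 nuclear-retained RNAs were.

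The genes nearest to the members' median class profile were Itsn1, Trak1 and Ift46. Nearness was the Euclidean distance, in percentage points, of 6 mean shares (3 classes in both tables) from the median profile of the 7 members that have all 3 classes and at least 10 TPM, over 1075 other genes. Itsn1, an endocytic scaffold, was nearest at 6.32 points, then Trak1, an adaptor of mitochondrial transport, and Ift46, of intraflagellar transport, both at 8.39. The nearest member, Srsf5, was 18.7 points from the same profile and the farthest, Srsf11, 54.0 points, so the profile describes no single member and its nearest genes are not shown to be like any of them.

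The genes lie on mm10 as follows. Srsf1 (ENSMUSG00000018379.17) is at chr11:88047373-88053755 and Srsf2 (ENSMUSG00000034120.18) at chr11:116849901-116853094. Srsf3 (ENSMUSG00000071172.13) is at chr17:29032628-29043373 and Srsf7 (ENSMUSG00000024097.11) at chr17:80200080-80207307. Srsf4 (ENSMUSG00000028911.16) is at chr4:131873617-131901706 and Srsf10 (ENSMUSG00000028676.17) at chr4:135855747-135869908. Srsf5 (ENSMUSG00000021134.17) is at chr12:80945504-80950507, Srsf6 (ENSMUSG00000016921.14) at chr2:162931528-162937121 and Srsf9 (ENSMUSG00000029538.14) at chr5:115327177-115333080. Srsf11 (ENSMUSG00000055436.18) is at chr3:158010473-158036639.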

How the data were processed

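Ribosomal RNA-depleted total RNA was sequenced in 3 libraries, on mm10 with GENCODE M21 per the deposited notes. The gene table and the alignment-based transcript table hold expected counts, TPM, isoform percent and TPM interval bounds, deposited by the authors. The direct table holds estimated counts and TPM, deposited by the authors. Not given in the sources used here: tools, interval level, use of strand. Used here were the 55536 genes and 141862 transcripts that matched GENCODE M21, and 141767 of these transcripts were in the direct table. Deposited rows without a match were not counted. The members, lists, tests and rule for named genes were chosen with earlier results of these data known. The rule took all members, the top transcript of each class, the 2 highest or any called genes of each list, and the 3 nearest genes.

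Spread was tested in edgeR 4.0.16 on expected counts rounded to whole numbers (filterByExpr, TMM, intercept-only fit, goodness-of-fit chi-square). Share differences within libraries were tested in limma 3.58.1 over all genes with at least 1 TPM in the tables used. Benjamini-Hochberg adjustment ran over all genes tested, at 0.05. On simulated data, 198 of 200 changed genes of the spread test were recovered (a 4-fold change in 1 library). For the share test it was 193 of 200 (a shift of 10 points). The noise of both simulations was a fixed setting and was not estimated from these libraries. Recovery therefore does not measure power here: differences of 10.5 points in Srsf3 (SD 3.42) and -10.1 points in Srsf2 (SD 4.81) were not called.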

Additional observations from a re-analysis of the deposited data

How the results depend on the processing

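No paired analysis was possible because the 3 libraries form 1 group, so no samples of different groups share a number (the differences between shares were taken within each library). The number of genes called for spread fell from 209 to 115 among protein-coding genes only, and to between 59 and 129 without 1 library, with 0 members called throughout. For the decay-class share between tables, 35 genes became 14 on a logit scale, 101 by counts, 16 with no minimum level and 0 without any 1 library. The 1 member called, Srsf6, became 0 on a logit scale, by counts, with no minimum level, with a minimum of 10 TPM (which left 3 members) and without any 1 library. For the retained-intron share between tables, 18 genes became 1, 46 and 11 in the first 3 of these settings and 0 without any 1 library, with 0 members throughout. For the retained-intron against the decay-class share, 363 genes became 738 on a logit scale, 229 with a minimum of 10 TPM, and between 0 and 165 without 1 library. Its 1 member called became 5 on a logit scale and 5 in the direct table, 0 by counts, and 0 to 1 without 1 library (without replicate 2 it was Srsf2, limma adjusted p = 0.0446, and not Srsf4). Fits without 1 library hold 2 libraries.

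The median protein-coding share of the members (86.4%) was 81.3% in the direct table and 92.0% by counts. It was 84.8% to 87.1% without 1 library. The median decay-class share (5.74%) was 8.20% in the direct table and 3.42% by counts. Leaving out transcripts with an incomplete start, an alternative chosen after seeing the data, gave 89.2% and 0.127%: the decay class then kept Srsf3, Srsf5, Srsf6, Srsf7 and part of Srsf11, and was at 0 in Srsf1, Srsf2, Srsf4 and Srsf9. The summed level of the members (264 TPM) was 117 TPM in the direct table, and the cause was not tested. Short and incomplete models, and reads shared between models, limit every share given.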
